A study of Mus musculus with 9 samples.

Results

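Gastrocnemius muscle of mice aged 21 months was compared with that of mice aged 15 months by RNA-seq, with 3 mice at each age. These 6 libraries were all those that the labels put at 15 and 21 months, out of 9 libraries in all. The other 3 libraries came from mice aged 6 months and are given beside the other ages as a reference level. The labels name no treatment, transgene, strain or sex, so age is the 1 difference between the groups that they record. RNA was extracted with TRIzol and messenger RNA was enriched on oligo(dT) beads, so each library is a bulk sample of all cells in the tissue taken. Which piece of the muscle was taken from each mouse is not described. The question put to these 6 libraries was which genes had changed late, after 15 months, and which had stayed flat.

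The gastrocnemius is a calf muscle made mostly of fast fibres, with a smaller share of slow fibres that are rich in mitochondria. Ageing muscle is known for loss of fibres and of their nerve contacts, and fibres that lose their motor neuron switch on a set of genes that innervation normally holds down, among them Runx1, Myog, Sln, Gadd45a and the acetylcholine receptor subunits. Ageing muscle is also known for load on the systems that fold, degrade and replace proteins, which include the chaperones, the proteasome and the lysosome. Thyroid hormone, named in the title of the series through its receptor alpha, sets fibre type and metabolic rate in muscle through the nuclear receptors Thra and Thrb.

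The 6 libraries held between 15354396 and 16499466 estimated counts each, and 13044 of 17314 genes passed the filter on low counts. The most abundant transcripts were those of fast skeletal muscle (Myh4, Acta1, Atp2a1, Tnnt3 and Ckm), as the tissue label says. Levels are given as CPM, counts divided by the scaled size of each library, and are not corrected for gene length, so they are compared between mice and not between genes. On the first principal component of the 6 libraries, which held 45% of the variance, replicate 1 at 15 months (-26.42) and replicate 3 at 21 months (-20.06) stood apart from the other 4 (1.6 to 18.45). These 2 libraries, 1 of each age, had the highest summed levels of slow fibre genes, at 2106 and 1792 CPM against 429 to 841 CPM in the other 4. In a bulk sample fewer cells of a type and less RNA per cell cannot be told apart. The medians of the lists in which these 2 libraries were high are given below with and without them.

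No gene passed the test across all genes: edgeR's quasi-likelihood test with Benjamini-Hochberg adjustment called 0 genes higher and 0 lower at 21 months (0% of 13044 in each direction), with every adjusted p at 0.9999. At an unadjusted p under 0.05 the count was 223 genes (1.71%), of which 132 (1.01%) were higher and 91 (0.698%) lower. DESeq2, run on the same genes, called 3 of 13039 (0.023%), namely Mybph and Runx1 higher and Xlr3b lower, and limma with sample quality weights called 0. The count at an unadjusted p under 0.05 was 445 without replicate 1 at 15 months, 682 without replicate 3 at 21 months and 639 without both. It was 145 without replicate 2 at 15 months, 112 without replicate 1 at 21 months and 1135 with sample quality weights. Over all tested genes the median log2 fold change was -0.00252, and 69 genes (0.529%) differed by more than 2-fold in either direction, 45 of them higher and 24 lower. In 370 genes (2.84%) the 3 mice at 21 months all lay above the 3 at 15 months, and in 431 (3.3%) they all lay below, 801 (6.14%) in all. If the ages did not differ, full separation of 3 against 3 mice would have a probability of 0.1. An unadjusted p under 0.05 would have a probability of 0.05. The shares found, 6.14% and 1.71%, lay below these, so neither a small p nor a lack of overlap marks a late change by itself. Every gene described as higher or lower in what follows is therefore described by its values in each mouse, and none of them passed the adjusted test with edgeR.

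**Figure D1:**
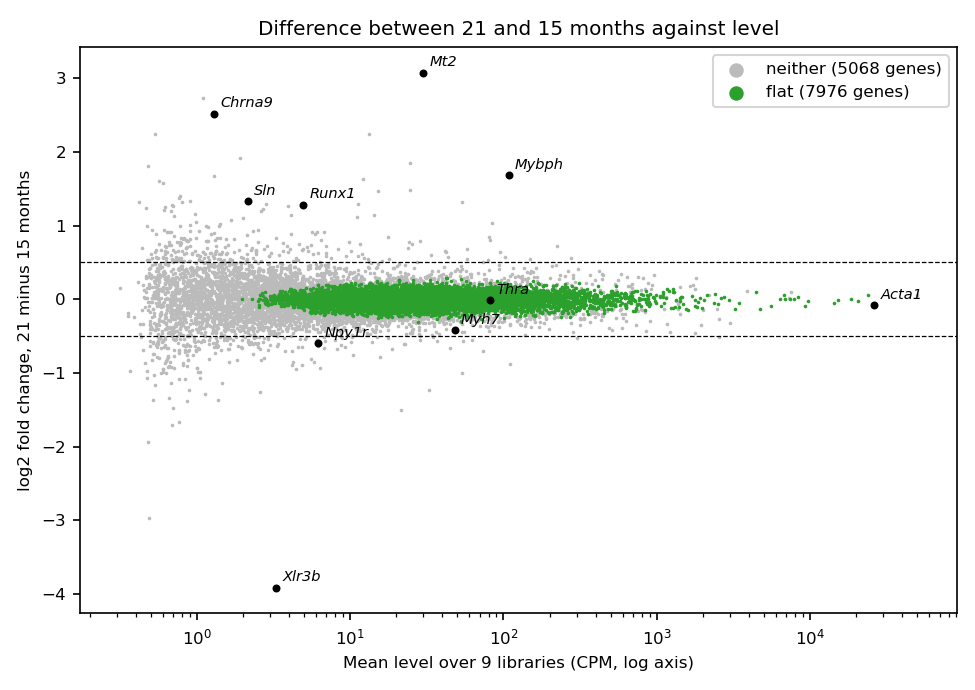
Log2 fold change at 21 against 15 months (vertical axis) against the mean level over the 9 libraries in CPM (horizontal log axis), 1 point per tested gene. Green points are the 7976 genes called flat, grey points the 5068 that were neither different nor flat, and the dashed lines mark the bounds of -0.5 and 0.5; 69 genes differed by more than 2-fold in either direction.

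Flatness was tested directly, since a p that misses a threshold does not show that a gene is unchanged. A pair of one-sided tests asked for each gene whether its log2 fold change lay between -0.5 and 0.5, that is, within 1.41-fold. By this test 7976 genes (61.1%) were flat between 15 and 21 months and 5068 (38.9%) were neither different nor flat. The flat share depended on level: it was 0 of 742 genes under 1 CPM, 1024 of 3887 (26.3%) from 1 to 10 CPM, 5639 of 6789 (83.1%) from 10 to 100 CPM, 1254 of 1541 (81.4%) from 100 to 1000 CPM and 59 of 85 (69.4%) from 1000 CPM up. The median standard error of the log2 fold change was 0.123 in flat genes and 0.279 in the others. Without the 2 libraries that stood apart, 5282 genes were flat.

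The gene with the smallest p-value was Runx1 (chromosome 16, 92601466 to 92826074), a transcription factor that muscle switches on when its nerve is cut. Its level was 3.72, 3.27 and 3.22 CPM in the 3 mice at 15 months and 11.1, 7.64 and 6.24 CPM in the 3 at 21 months. All 3 older mice lay well above all 3 younger ones, and the mice at 6 months, at 2.75 to 3.52 CPM, lay with those at 15 months. The log2 fold change was 1.29 (SE 0.22, 2.44-fold, unadjusted p = 0.000112 and adjusted p = 0.9999 with edgeR, adjusted p = 0.00467 with DESeq2).

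Mybph (chromosome 1, 134193418 to 134201237), which encodes myosin-binding protein H of the thick filament, had the largest difference among genes of at least 10 CPM whose p was under 0.01. It stood at 45.8, 21.5 and 25.0 CPM at 15 months and at 94.1, 114 and 89.3 CPM at 21 months. The groups did not overlap, and both lay below the 150, 175 and 259 CPM of the mice at 6 months, so the level at 21 months fell between those of the other ages. The log2 fold change from 15 to 21 months was 1.69 (SE 0.31, 3.22-fold, unadjusted p = 0.000478 and adjusted p = 0.9999 with edgeR, adjusted p = 3.78e-06 with DESeq2). Exons of Mybph share 1162 of 2329 bases with those of Adora1, an adenosine receptor gene on the opposite strand, and whether the counting used strand is unknown here. Adora1 was listed at 0.496, 0.555 and 0.253 CPM at 15 months and at 1.08, 1.55 and 1.61 CPM at 21 months, with a log2 fold change of 1.68 (SE 0.53), and reads from the overlap cannot be assigned to either gene.

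The 220 bases before the first base listed for Mybph are printed here because Mybph and Runx1 were the 2 genes called higher by DESeq2, and RUNX1 is known to bind the letters TGTGGT. The sequence is from RefSeq on build GRCm38.p6, plus strand, at chr1:134193198-134193417, with 3 motif matches in capitals.
Mybph: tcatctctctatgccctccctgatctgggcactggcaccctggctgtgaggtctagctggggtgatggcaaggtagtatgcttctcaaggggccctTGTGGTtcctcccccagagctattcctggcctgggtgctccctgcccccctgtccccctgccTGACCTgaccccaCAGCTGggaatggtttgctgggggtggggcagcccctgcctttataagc
From left to right the capitals mark TGTGGT, starting at base -124 from the first base of the gene (134193418), TGACCT at -62, which is the nuclear receptor half-site AGGTCA read on the other strand, and CAGCTG at -49, an E-box of the kind that MYOG and MYOD1 bind. No 2 of the 3 matches overlap. Searched on both strands in the 250 bases before each transcript start, which for Mybph take in another 30 bases, TGTGGT was in 10.7% of the 13321 promoter windows of tested genes, AGGTCA in 10.9% and CAGCTG in 12.5%, so none of the 3 is rare. The 2 windows listed for Runx1 held none of the 3 motifs. A match describes these letters and does not show binding.

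Among the 19 tested genes of the denervation and neuromuscular junction list, 4 were higher at an unadjusted p under 0.05 (21.1%), against 1.01% of all tested genes. Besides Runx1 these were Sln, Gadd45a and Myog. In the same list 0 were lower and 6 were flat (31.6%, against 61.1% of all genes), and 9 lay above 0 and 10 below. The list was chosen with earlier results of these data known, so its shares describe its members and are not a test of denervation. Sln, which encodes sarcolipin, an inhibitor of the sarcoplasmic reticulum calcium pump, stood at 2.11, 1.11 and 1.45 CPM at 15 months and at 4.51, 4.36 and 2.90 CPM at 21 months. The groups did not overlap, and the log2 fold change was 1.33 (SE 0.34). Myog, the myogenic regulator myogenin, was at 3.78, 2.90 and 2.59 CPM at 15 months and at 4.33, 4.83 and 4.32 CPM at 21 months, also without overlap and with a smaller log2 fold change of 0.54 (SE 0.24). Gadd45a, a stress gene that denervated muscle induces, was at 19.3, 16.3 and 18.0 CPM and then at 42.6, 26.0 and 18.0 CPM. Replicate 3 at 21 months lay within the range of the mice at 15 months, so for Gadd45a the ages overlapped.

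Most synaptic members of the same list lay closer to 0, Chrna1 and Chrnb1 among them. Acetylcholine receptor subunits are also among the genes named above that fibres switch on when they lose their motor neuron. Chrna1, the alpha subunit of the muscle acetylcholine receptor, was at 22.6, 19.2 and 26.1 CPM at 15 months and at 18.4, 28.8 and 19.3 CPM at 21 months, a log2 fold change of -0.03 (SE 0.26). Musk, the receptor kinase that organises the synapse, was at 136, 192 and 265 CPM and then at 340, 331 and 151 CPM, so its ages overlapped widely. For Chrnb1, the beta subunit, the log2 fold change was 0.27 (SE 0.12). Agrn, Lrp4, Dok7, Rapsn, Ache and Hdac4 were the 6 flat members, the first 5 of which encode parts of the synapse or of the pathway that assembles it. The median over the list was -0.03, close to that of all genes, and ran from -0.09 to 0.12 when 1 library at 15 or 21 months was left out. Without both libraries that stood apart 5 members were higher at an unadjusted p under 0.05 and 0 lower. The count over all genes rose as well in that fit, to 639 of 13126 in either direction, from 223 of 13044 with all libraries.

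Chrna9, an acetylcholine receptor subunit better known from the inner ear, was at 1.18, 0.185 and 0.126 CPM at 15 months and at 2.46, 4.77 and 1.42 CPM at 21 months. The ages did not overlap, but the 3 older mice differed among themselves by more than 3-fold, and the log2 fold change of 2.52 had an SE of 0.76. Clu, which encodes the secreted chaperone clusterin, was at 37.7, 47.0 and 44.1 CPM at 15 months and at 71.9, 55.2 and 61.3 CPM at 21 months. With a log2 fold change of 0.55 (SE 0.13), its level at 21 months lay in the range of the mice at 6 months, at 59.9 to 77.3 CPM. Nr1d1, the clock repressor REV-ERB alpha, was at 208, 171 and 196 CPM and then at 335, 296 and 216 CPM (log2 fold change 0.56, SE 0.16), and the mice at 6 months were at 312 to 395 CPM. For Clu, Nr1d1 and Mybph alike, therefore, the mice at 15 months held the lowest levels of the 3 ages.

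The remaining genes among the 15 smallest p-values on the higher side were Fam174b, Lrat, Cpne2, Amotl2, Gstm2, Nab2, Mamld1, Myo1f and Amy1, all without overlap between the ages. Lrat, which esterifies retinol for storage, was at 0.620, 0.493 and 0.821 CPM at 15 months and at 1.62, 1.85 and 1.42 CPM at 21 months (log2 fold change 1.33, SE 0.32). Cpne2, a calcium-dependent membrane-binding protein of the copine family, was at 13.1, 14.0 and 18.6 CPM and then at 37.0, 26.2 and 19.3 CPM (0.85, SE 0.22). Nab2, a repressor of the EGR transcription factors, was at 6.01, 5.92 and 5.18 CPM and then at 11.8, 6.20 and 10.3 CPM (0.72, SE 0.21). The log2 fold changes of the other 6 ran from 0.33 for Gstm2, a glutathione transferase, to 1.19 for Fam174b. Amy1 (0.42, SE 0.13) and Gstm2 each belong to a family of near-identical copies between which counts can be split.

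**Figure D2:**
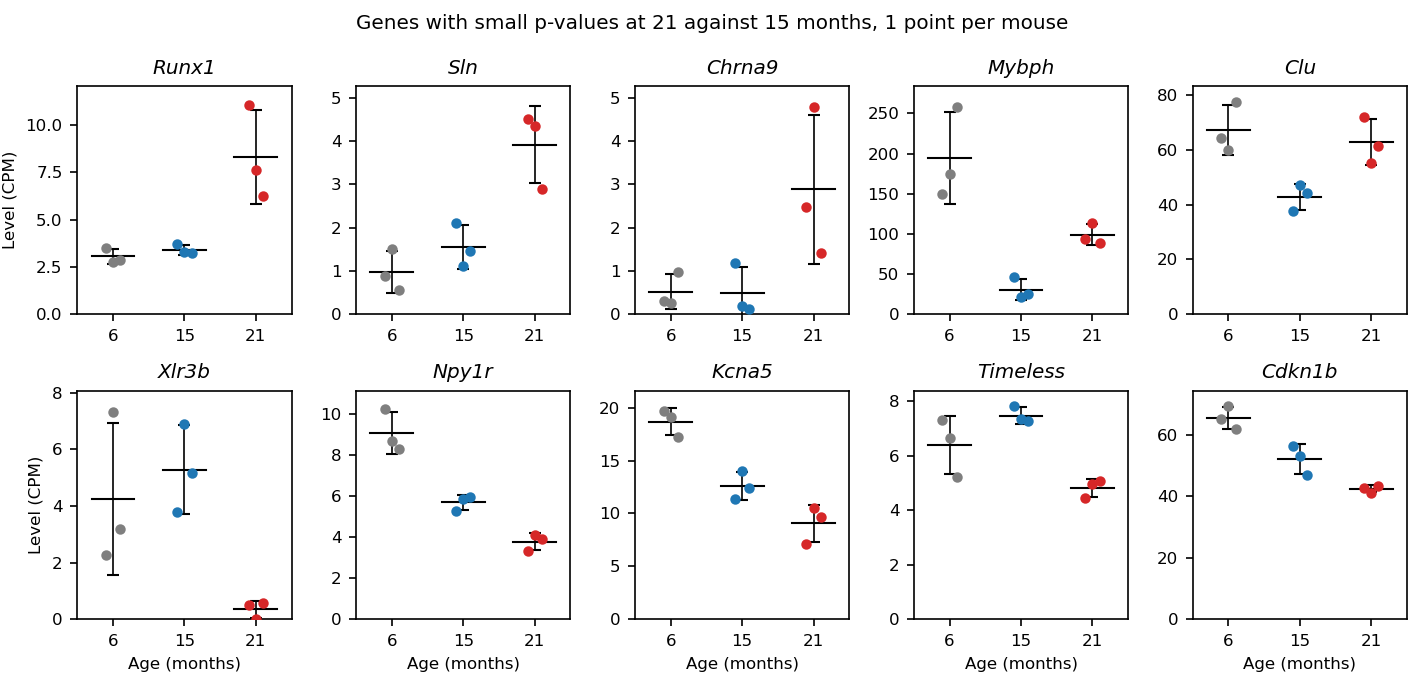
Level in CPM (vertical axis, from 0) by age in months (horizontal axis) for 10 genes with small unadjusted p-values, 1 point per mouse, with the mean and SD of the 3 mice as a bar with whiskers. In each panel the red points (21 months) do not overlap the blue points (15 months), and the grey points (6 months) show that Mybph and Clu had been higher before 15 months while Npy1r, Kcna5 and Cdkn1b were lower at each later age.

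On the lower side Xlr3b had the largest difference of all tested genes. Xlr3b (chromosome X, 73192150 to 73202930), a lymphocyte-regulated gene of the X chromosome, was at 3.78, 6.90 and 5.18 CPM at 15 months and at 0.481, 0 and 0.556 CPM at 21 months. The log2 fold change was -3.92 (SE 0.70, unadjusted p = 0.000347 and adjusted p = 0.9999 with edgeR, adjusted p = 3.78e-07 with DESeq2). Xlr3b has the near-identical copies Xlr3a and Xlr3c, and the authors' estimated counts can be split between them. In estimated counts Xlr3b had 61.5, 112 and 81.8 at 15 months and 7.83, 0 and 8.53 at 21 months, while Xlr3a had 3.54, 19.3 and 31.1 and then 23.2, 11 and 2.47. Summed over the 3 copies the counts were 65, 132 and 114 against 31, 11 and 11, still without overlap but with a smaller gap than for Xlr3b alone.

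Timeless, Npy1r, Kcna5 and Atp13a5, also among the 15 smallest p-values on the lower side, differed by less than 2-fold. Timeless, whose protein travels with the replication fork, was at 7.81, 7.34 and 7.27 CPM at 15 months and at 4.45, 4.95 and 5.06 CPM at 21 months (log2 fold change -0.63, SE 0.16). Npy1r, the Y1 receptor through which neuropeptide Y constricts vessels, was at 5.27, 5.86 and 5.94 CPM and then at 3.31, 4.12 and 3.89 CPM (-0.59, SE 0.16). Kcna5, a voltage-gated potassium channel, was at 11.4, 14.1 and 12.4 CPM and then at 7.09, 10.5 and 9.63 CPM (-0.47, SE 0.15). For Npy1r and Kcna5 the mice at 6 months were higher again, at 8.28 to 10.2 CPM and 17.2 to 19.7 CPM, so that the 3 ages did not overlap in either gene. Atp13a5, a transporter of the P5 ATPase family, had its highest level at 15 months: 10.9, 10.5 and 12.5 CPM there, 6.67, 6.68 and 7.90 CPM at 21 months and 5.07 to 7.85 CPM at 6 months.

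Cdkn1b, which encodes the cell cycle inhibitor p27, was under 0.05 unadjusted and flat as well. It was at 56.4, 52.9 and 46.8 CPM at 15 months and at 42.7, 41.1 and 43.2 CPM at 21 months, without overlap and with an unadjusted p of 0.00956 in edgeR (adjusted p = 0.9999). Its log2 fold change of -0.30 (SE 0.10) was within the bounds, with an adjusted p of 0.0465 for flatness. In all 27 genes were both flat and under 0.05 unadjusted. Abhd11, a mitochondrial hydrolase, was another, with a log2 fold change of -0.30 (SE 0.09). The other genes among the 15 smallest p-values on the lower side were Plekhn1, Vamp5, Hdac11, Tmem8b, Plekhd1, Ddit4l, Pald1 and Dusp19, with log2 fold changes from -0.32 for Pald1 to -1.37 for Plekhd1. Ddit4l, an inhibitor of mTOR signalling that is induced by disuse, was the 1 gene among them whose ages overlapped, at 238, 291 and 396 CPM and then 245, 185 and 212 CPM. It was also 1 of 2 lower members (6.06%) of the insulin, IGF and mTOR list of 33 genes, against 0.698% of all genes. The other was Arrdc3, an arrestin-domain gene (-0.55, SE 0.20). In that list 18 genes were flat (54.5%, against 61.1% of all genes), among them Akt2 and Insr, the insulin receptor.

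The 2 chaperone lists leaned upward by a small amount. Of 24 cytosolic heat shock genes 20 had a log2 fold change above 0, with a median of 0.16. On the higher side 4 (16.7%) were under 0.05 unadjusted, against 1.01% of all tested genes. Flat members were 12 (50%), against 61.1% of all tested genes. Hsph1, the HSP110 nucleotide exchange factor, was at 150, 121 and 137 CPM at 15 months and at 196, 184 and 166 CPM at 21 months, without overlap (log2 fold change 0.42, SE 0.13). Hspb8, a small heat shock protein that works with BAG3 in selective autophagy, was at 680, 644 and 760 CPM and then at 964, 827 and 772 CPM (0.30, SE 0.13). Stip1, which links HSP70 to HSP90, had a log2 fold change of 0.21 (SE 0.09) and Dnaja1, an HSP70 co-chaperone, one of 0.25 (SE 0.11), and both were within the bounds of flatness. Bag3 itself was flat (0.04, SE 0.13). Hspa1a was at 15.1, 8.51 and 6.70 CPM and then at 15.9, 9.72 and 41.5 CPM, so that 1 library, replicate 3 at 21 months, held its highest value. Without that library the list had 13 of 24 genes above 0 and a median of 0.02. The median was 0.24 without replicate 1, 0.07 without replicate 2 and 0.10 without replicate 3 at 15 months; without both libraries that stood apart it had 17 above 0 and a median of 0.20.

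Of 27 tested genes of endoplasmic reticulum stress and folding, 23 were above 0, with a median of 0.14. On the higher side 5 (18.5%) were under 0.05 unadjusted, against 1.01% of all tested genes. Flat members were 17 (63%), against 61.1% of all tested genes. Xbp1, which switches on chaperone genes when unfolded protein builds up, was at 139, 164 and 141 CPM at 15 months and at 198, 207 and 166 CPM at 21 months, without overlap (log2 fold change 0.36, SE 0.12). Hsp90b1, the HSP90 of this compartment, was at 254, 294 and 218 CPM and then at 349, 329 and 272 CPM (0.31, SE 0.13). Hyou1 (0.36, SE 0.14), Pdia3 (0.27, SE 0.12) and Canx (0.24, SE 0.11), a chaperone, a disulphide isomerase and the lectin calnexin, were the other 3. Hspa5, the main chaperone of the compartment, was at 396, 683 and 393 CPM and then at 677, 664 and 515 CPM, and its ages overlapped. Dnajb9, an XBP1 target, was flat at a log2 fold change of 0 to 2 decimals (SE 0.20). Without both libraries that stood apart the list again had 23 genes above 0, and a median of 0.14. The size of the lean depended on single libraries: the median was 0.06 with 19 of 27 above 0 without replicate 1 at 15 months, and 0.27 with 26 of 27 above 0 without replicate 2 at 15 months.

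The metallothioneins and p21 differed between the ages with a wide spread among the older mice. Mt2, a metal-binding metallothionein, was at 15.3, 5.55 and 5.31 CPM at 15 months and at 171, 26.8 and 23.6 CPM at 21 months. Its neighbour Mt1 was at 18.5, 11.2 and 10.6 CPM and then at 101, 25.7 and 19.1 CPM. In both genes all 3 older mice lay above all 3 younger mice, and replicate 1 lay far above the other 2 older mice; the log2 fold changes were 3.08 (SE 0.97) for Mt2 and 1.86 (SE 0.66) for Mt1. These were the 2 members under 0.05 unadjusted (11.1%) of 18 tested in the glucocorticoid-responsive and metallothionein list. In that list the median was -0.10 and 4 (22.2%) were flat. Over all tested genes 1.01% were higher at an unadjusted p under 0.05 and 61.1% were flat. Cdkn1a, the p53 target p21, was at 59.7, 44.8 and 64.7 CPM and then at 150, 121 and 73.9 CPM, without overlap (1.03, SE 0.42).

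Within the p53, Gadd45 and senescence list of 21 tested genes, 3 were higher (14.3%) and 2 lower (9.52%) at an unadjusted p under 0.05, and 7 (33.3%) were flat. Over all tested genes the shares were 1.01% higher, 0.698% lower and 61.1% flat. Cdkn1a, Gadd45a and Mmp3 were the higher 3; Cdkn1b and Gadd45g, which stood at 31.6, 50.7 and 52.8 CPM and then at 26.1, 35.8 and 29.5 CPM, were the lower 2. Further p53 targets, Ccng1 (log2 fold change 0.13, SE 0.12) and Mdm2 (0.16, SE 0.12), were flat, and Eda2r, a receptor of the TNF family, was at 94.8, 57.9 and 133 CPM and then at 185, 138 and 104 CPM, with overlap. In the immediate early list Junb was at 8.31, 7.03 and 9.10 CPM and then at 19.3, 8.47 and 14.1 CPM, and Egr1 at 5.52, 5.12 and 10.8 CPM and then at 14.3, 8.05 and 44.3 CPM. Both of these growth and activity responders overlapped between the ages. They were the 2 of 21 (9.52%) under 0.05 unadjusted, against 1.01% of all genes on the higher side. In the clock list of 20 genes Nr1d1 was the 1 gene higher at an unadjusted p under 0.05 (5.0%), 1 gene (5.0%) was lower and 4 were flat. Without both libraries that stood apart the counts of higher and lower genes were 4 and 4 in the clock list and 0 and 1 in the immediate early list. They were 3 and 1 in the p53 list and 3 and 1 in the glucocorticoid-responsive list. Over all genes the count in either direction was 639 of 13126 in that fit, against 223 of 13044 with all libraries. The labels give no time of day for the sampling.

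Thra, the thyroid hormone receptor named in the series title, was flat from 15 to 21 months. It stood at 78.4, 65.5 and 82.0 CPM in the mice at 15 months and at 78.4, 71.4 and 74.5 CPM in those at 21 months, fully overlapping. On the log2 scale the difference was -0.01 (SE 0.11), with an adjusted p of 0.00456 for flatness, and an exact two-sided permutation test over the 6 mice gave p = 0.9, where 0.1 is the smallest p that 3 against 3 can give. The mice at 6 months were at 90.1 to 106 CPM, above both later ages. Thrb, the second receptor, was at 27.8, 31.4 and 30.8 CPM and then at 33.8, 31.8 and 29.0 CPM (log2 fold change 0.07, SE 0.09, adjusted p for flatness 0.00456, exact permutation p = 0.4). Thra shares 263 of its 3158 exon bases with Nr1d1 on the opposite strand, and Nr1d1 was higher while Thra was flat.

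Of the 17 tested thyroid hormone genes 13 were flat (76.5%, against 61.1% of all genes and 83.1% of those from 10 to 100 CPM) and 0 were under 0.05 unadjusted. The median level of the list was 66.8 CPM. The partner receptors Rxra (-0.01, SE 0.14) and Rxrg (-0.07, SE 0.10), the hormone-responsive factor Klf9 (-0.16, SE 0.13) and the cytosolic hormone-binding protein Crym (0.12, SE 0.18) were among them on the log2 scale. The hormone and amino acid transporter Slc16a10 was flat as well (SE 0.20), at a mean of 141 CPM at both ages. Dio2, the enzyme that activates the hormone, was neither, at 5.83, 5.98 and 2.91 CPM and then at 4.45, 3.04 and 5.19 CPM.

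Many abundant contractile and glycolytic genes were flat, in a share near that of other genes of their level. Of the flat genes, those with the highest mean level were Acta1, Atp2a1, Tnnt3, Ckm, Tpm1, Aldoa, Myl1, Gapdh, Pygm, Mylpf, Tnnc2, Pvalb, Ttn, Tnni2 and Eno3, which encode fast fibre filaments, the fast calcium pump, parvalbumin, creatine kinase and enzymes of glycolysis and glycogen breakdown. Acta1, skeletal actin, averaged 24505 ± 3671 CPM in the 3 mice at 15 months (SD) and 23128 ± 949 CPM in the 3 at 21 months, and its log2 fold change was -0.08 (SE 0.15). Ttn, titin, averaged 6498 ± 327 and 6758 ± 204 CPM at these ages, a log2 fold change of 0.06 (SE 0.13). In the fast fibre list 10 of 15 genes were flat (66.7%) and in the glycolysis and glycogen list 17 of 23 (73.9%), against 61.1% of all genes, 81.4% of those from 100 to 1000 CPM and 69.4% of those from 1000 CPM up. Myh4, the fast IIb myosin and the most abundant transcript, was at 33611, 50864 and 60203 CPM and then at 51108, 59177 and 40528 CPM; at a log2 fold change of 0.06 (SE 0.22) it missed flatness, with an adjusted p of 0.0557.

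The machinery that makes and removes proteins held the highest flat shares of the 37 gene groups. The median level was 254 CPM in the cytosolic ribosomal list, 139 CPM in the proteasome list, 75.2 CPM in the autophagy and lysosome list and 136 CPM in the basement membrane list. Of all genes 83.1% were flat from 10 to 100 CPM and 81.4% from 100 to 1000 CPM. All 32 cytosolic ribosomal protein genes were flat, with log2 fold changes from -0.18 to 0.20 and a median of -0.04. Rps2 averaged 894 ± 28.7 CPM over the 3 mice at 15 months (SD) and 901 ± 76.7 CPM over the 3 at 21 months, and Rpl3 had the largest positive value at 110 ± 13.7 and 126 ± 3.18 CPM. Of 28 proteasome subunits 27 were flat (96.4%), with a median of -0.004, and the exception, Psmb2, was at 71.5, 66.1 and 72.3 CPM and then at 61.6, 56.2 and 60.3 CPM (log2 fold change -0.24, SE 0.15). In the autophagy and lysosome list 27 of 29 were flat (93.1%), among them the cargo receptor Sqstm1 (0.04, SE 0.17), the lysosomal protease Ctsd (-0.09, SE 0.14) and the lysosomal membrane protein Lamp1 (0.01, SE 0.12). The basement membrane list had 19 of 21 flat (90.5%), among them Dag1, Hspg2 and Dmd, which link the fibre to its sheath. In the excitation-contraction list 14 of 17 were flat (82.4%), with Ryr1, the calcium release channel, at 0.03 (SE 0.17) and Cacna1s, its voltage sensor, at 0.05 (SE 0.14). Sln was the 1 member of that list under 0.05 unadjusted (5.88%, against 1.01% of all genes on the higher side). Without the 2 libraries that stood apart, which leaves 2 mice at each age, fewer genes were flat, 5282 of 13126 (40.2%) over all genes. In that fit the flat members were 26 of 32 cytosolic ribosomal genes, 16 of 28 proteasome, 20 of 29 autophagy and lysosome and 12 of 21 basement membrane genes.

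**Figure D3:**
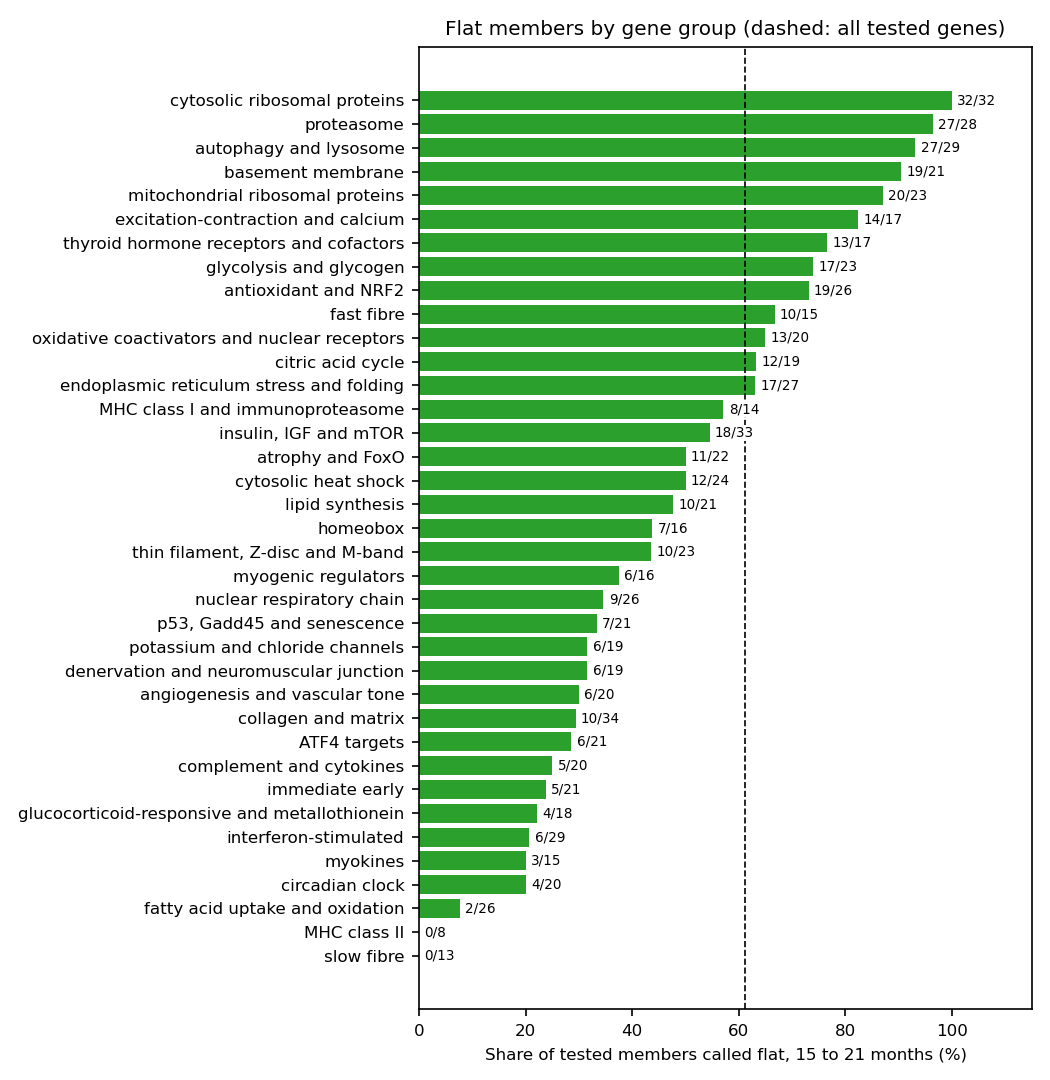
Share of tested members called flat between 15 and 21 months, in percent (horizontal axis), for 37 gene groups (vertical axis), with flat over tested members printed beside each bar. The dashed line is the share over all tested genes, 61.1%; 13 of 37 groups lie above it, led by ribosomal, proteasome, autophagy and basement membrane genes, and slow fibre and MHC class II genes have none.

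Genes of oxidative metabolism leaned downward by small amounts whose size depended on single libraries. All 26 nuclear respiratory chain genes had a log2 fold change below 0, with a median of -0.16, 9 were flat (34.6%) and 0 (0%) were under 0.05 unadjusted. Over all tested genes 61.1% were flat and 6624 of 13044 lay below 0. The median level was 348 CPM in this list, 310 CPM in the citric acid cycle list and 35.1 CPM in the mitochondrial ribosomal list. The flat share of all genes was 83.1% from 10 to 100 CPM and 81.4% from 100 to 1000 CPM. Cox7a1, the muscle isoform of a cytochrome oxidase subunit, was at 112, 103 and 71.5 CPM at 15 months and at 63.9, 62.5 and 94.2 CPM at 21 months. Replicate 1 at 15 months and replicate 3 at 21 months were the highest of their ages. Cox4i1, another cytochrome oxidase subunit, was at 702, 595 and 549 CPM and then at 460, 430 and 651 CPM. All 19 citric acid cycle genes were below 0 too, with a median of -0.13 and 12 flat (63.2%). So were 22 of 23 mitochondrial ribosomal genes, with a median of -0.09 and 20 flat (87%). Without replicate 1 at 15 months the respiratory chain median was -0.04, without replicate 3 at 21 months it was -0.37, and without both it was -0.24 with 26 of 26 below 0. It was -0.27 without replicate 3 at 15 months, and -0.10 and -0.05 without replicates 1 and 2 at 21 months. Without both libraries the citric acid cycle median was -0.21 and the mitochondrial ribosomal median -0.18; leaving out 1 library at a time they ran from -0.30 to -0.03 and from -0.20 to -0.06. The summed level of slow fibre genes was highest in the same 2 libraries, and its part in the result was not tested.

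The lean of the fatty acid genes turned with 1 library. Of 26 genes 25 were below 0, with a median of -0.24, 2 were flat (7.69%) and 0 were under 0.05 unadjusted. The median level of the list was 219 CPM, and 81.4% of all genes from 100 to 1000 CPM were flat. Fabp3, the muscle fatty acid binding protein, was at 1239.5, 598 and 306 CPM and then at 369, 343 and 894 CPM, and Cpt1b, the carnitine transferase that admits fatty acids to the mitochondrion, at 567, 379 and 325 CPM and then at 315, 262 and 452 CPM. Without replicate 1 at 15 months 23 of the 26 genes were above 0 and the median was 0.16, and without replicate 3 at 21 months all 26 were below 0 and the median was -0.55. Without both, 19 of 26 were below 0 and the median was -0.14. It was -0.42 without replicate 3 at 15 months, and -0.14 and -0.09 without replicates 1 and 2 at 21 months. Pdk4, the kinase that turns muscle from glucose to fat, was at 1727, 150.2 and 405 CPM and then at 574, 334 and 790.1 CPM, with an SE of 1.21 on its log2 fold change of -0.43.

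**Figure D4:**
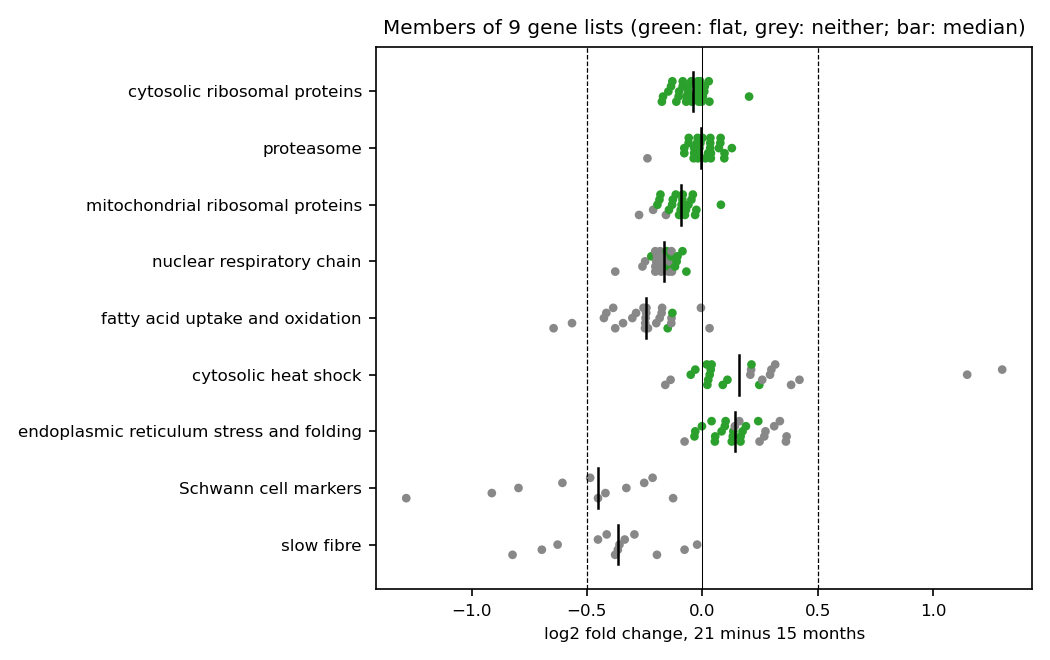
Log2 fold change at 21 against 15 months (horizontal axis) of each tested member of 9 gene lists (vertical axis), with flat members in green, the others in grey and a bar at each median. The ribosomal and proteasome members lie close to 0, the 2 chaperone lists have medians of 0.16 and 0.14, and the Schwann cell and slow fibre lists spread widest to the left, with medians of -0.45 and -0.37.

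No slow fibre gene was flat, against 61.1% of all genes, and none was under 0.05 unadjusted. Mice of 1 age differed widely from each other. Myh7, the slow myosin, was at 166, 49.7 and 22.7 CPM at 15 months and at 4.69, 18.7 and 156 CPM at 21 months, and at 0.438 to 12.8 CPM at 6 months. Myl2, the slow regulatory light chain, was at 185, 87.2 and 49.1 CPM and then at 21.2, 48.3 and 180 CPM. Csrp3, a Z-disc protein of slow fibres, was at 440, 41.1 and 15.4 CPM and then at 58.0, 78.3 and 352 CPM, and had the largest SE, 1.89, among genes of at least 10 CPM. Myh2, the oxidative fast IIa myosin, was at 4395, 2825 and 834 CPM and then at 1267, 967 and 3642 CPM. In all 4 the highest mouse at each age was the same library, replicate 1 at 15 months and replicate 3 at 21 months. All 13 list members had a log2 fold change below 0, with a median of -0.37 and a median SE of 1.14; without replicate 1 at 15 months 12 of 13 were above 0 and the median was 0.44. Without replicate 3 at 21 months all 13 were below 0 and the median was -1.63, and without both 11 of 13 were below 0 and it was -0.65. It was -0.58 and -0.73 without replicates 2 and 3 at 15 months, and 0.05 and -0.08 without replicates 1 and 2 at 21 months.

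**Figure D5:**
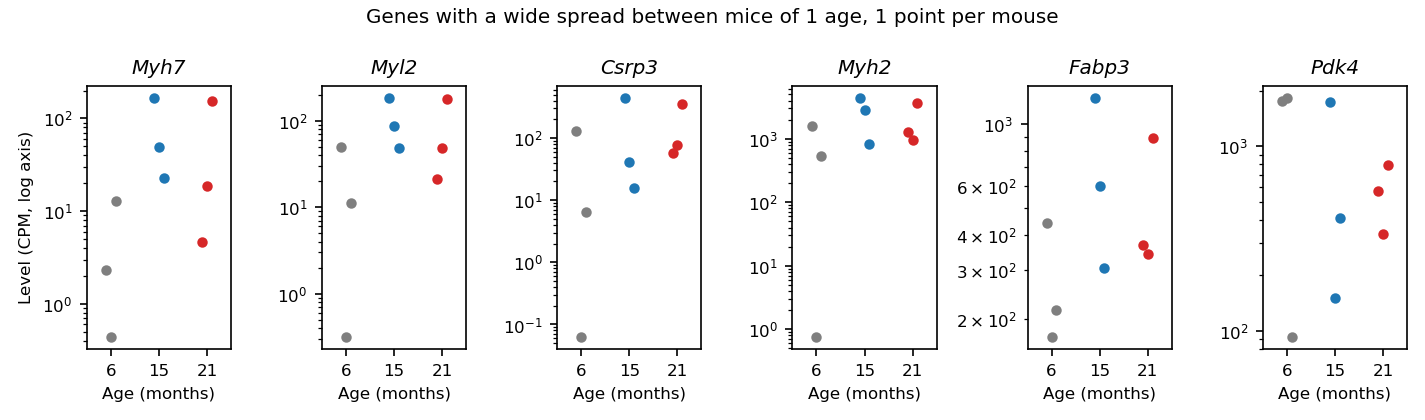
Level in CPM (vertical log axis) by age in months (horizontal axis) for 6 genes of slow fibres, oxidative fast fibres (Myh2) or fat metabolism, 1 point per mouse. At 15 months (blue) and at 21 months (red) the 3 mice of 1 age are far apart in Myh7, Myl2, Csrp3 and Myh2, and in every panel the same library is the highest at 15 months and the same library at 21 months.

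Markers of the other cells in muscle gave no call. Among the marker lists with more than 1 tested gene the Schwann cell list leaned furthest: all 11 genes had a log2 fold change below 0, with a median of -0.45, 2 (18.2%, against 0.698% of all genes) were under 0.05 unadjusted and 0 were flat. Its median level was 7.95 CPM, and 26.3% of all genes from 1 to 10 CPM were flat. S100b was at 2.91, 1.79 and 1.07 CPM at 15 months and at 0.901, 0.537 and 0.926 CPM at 21 months, and Cadm4, an adhesion protein of the myelinating cell, at 5.02, 3.70 and 2.65 CPM and then at 1.80, 2.15 and 2.59 CPM. Neither S100b nor Cadm4 overlapped between the ages, and in both replicate 1 at 15 months was the highest. The summed level of the list was 215, 131 and 122 CPM at 15 months and 117, 113 and 120 CPM at 21 months, and without that library the median was -0.10 with 9 of 11 below 0. Without both libraries that stood apart it was -0.13 with 10 of 11 below 0, and without replicate 3 at 15 months it was -0.69.

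The other lists were closer to 0 or loosely measured. The 8 MHC class II genes, made by antigen-presenting cells, had a median of 0.24 with 0 flat, and the 12 macrophage markers a median of 0.05 with 0 flat and summed levels of 130 to 304 CPM at 15 months and 170 to 256 CPM at 21 months. Endothelial markers were flat in 8 of 11 genes, fibro-adipogenic progenitor markers in 6 of 11, satellite cell markers in 5 of 10, smooth muscle and pericyte markers in 5 of 11, and tenocyte markers in 0 of 9. Over all tested genes 61.1% were flat, with 26.3% from 1 to 10 CPM and 83.1% from 10 to 100 CPM. The median level was 4.07 CPM in the tenocyte list, 13.9 CPM in the MHC class II list and 16.8 CPM in the macrophage list. It lay between 17.7 and 95.7 CPM in the endothelial, progenitor, satellite cell and smooth muscle lists. Erythrocyte markers, carried by blood left in the muscle, had a median of -0.19 in 7 tested genes and summed levels of 658 to 800 CPM at 15 months and 430 to 932 CPM at 21 months. Leaving out 1 library at a time, the macrophage median ran from -0.19 (without replicate 3 at 15 months) to 0.40 (without replicate 1 at 15 months), the erythrocyte median from -0.65 (without replicate 3 at 21 months) to 0.06 (without replicate 1 at 21 months) and the MHC class II median from 0.11 to 0.34. Without both libraries that stood apart these medians were 0.15, -0.67 and 0.20. None of the T and NK cell markers passed the filter on low counts, and 1 of 8 B and plasma cell markers, 3 of 7 neutrophil markers (median 0.12) and 9 of 12 adipocyte markers (median 0.03) did. Among cytokines Ccl7, a chemokine that attracts monocytes, was the 1 of 20 tested (5.0%) under 0.05 unadjusted, against 1.01% of all genes on the higher side. Ccl7 was at 0.310, 0.123 and 0.190 CPM and then at 1.502, 0.418 and 1.11 CPM.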

How the data were processed

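Poly(A) RNA-seq of gastrocnemius was analysed in 3 mice each at 6, 15 and 21 months. The authors deposited a single table of estimated counts per gene with gene names (90% to 90.7% of values whole to within 0.005); reads were mapped to mm10 per the submitters' processing notes, while the aligner, counting tool and strand setting are not given in the sources used. The estimated counts were first made whole by rounding.

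Tested genes were those kept by filterByExpr (minimum count 10), and libraries were scaled by TMM. edgeR 4.0.16 in R 4.3.3 (robust quasi-likelihood, all 9 libraries, age as a factor, contrast 21 minus 15 months) gave log2 fold changes, standard errors and p-values, adjusted by Benjamini-Hochberg over 13044 genes at a threshold of 0.05. Flatness used 2 one-sided tests on the same fit against -0.5 and 0.5, adjusted likewise. The fit was tested on simulated data. DESeq2 1.42.0 and limma 3.58.1 were alternatives, as were other scalings, filters and samples.

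Gene lists, members and tests were chosen with earlier results of these data known. Named genes are the 15 smallest p-values in each direction (at least 1 CPM, no predicted genes), the flat genes of highest level, the genes of largest standard error, Thra and Thrb, and list members of smallest p, largest change or highest flat level; other list members were named for their role after their values were seen. The median standard error of the log2 fold change was 0.45 for genes under 1 CPM and 0.12 for those from 10 to 100 CPM. Coordinates and promoters are RefSeq's on GRCm38.p6 (17188 of 17314 genes matched); exon overlaps are from GENCODE's annotation of the same assembly. Values of some single genes are not reported here.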

Additional observations from a re-analysis of the deposited data

How the results depend on the processing

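edgeR called 0 genes in either direction under every alternative of scaling, filter, samples and prior, with voom, and in each fit that leaves out 1 library; DESeq2 called 2 higher and 1 lower. The flat count ran from 5951 to 8214 over the fits that leave out 1 library, and 5102 of the 7976 flat genes (64.0%) were flat in all 9 of them. It was 5282 without replicate 1 at 15 months and replicate 3 at 21 months, an alternative added after seeing the data, and 0 with bounds of 0.3 in place of 0.5 (11797 with bounds of 1). With bounds of 0.5 Thra and Thrb were flat under every alternative run, with adjusted p of at most 0.0246 and 0.0245; with bounds of 0.3 neither was. The labels do not say whether the replicate numbers pair the mice. Deviations of same-numbered mice from the mean of their age correlated at -0.181, 0.0711 and -0.472. With 3 mice at each age these values cannot show whether mice of 1 number share a batch. With a replicate block 0 genes were called and 7649 were flat.

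The sign of loosely measured genes depended on the setting. Leaving out 1 library at a time, the log2 fold change of Csrp3 ran from -1.28 to 2.53, of Myh7 from -2.77 to 0.72, of Myl2 from -1.63 to 0.29, of Myh2 from -1.27 to 0.10, of Fabp3 from -1.005 to 0.24, of Pdk4 from -0.91 to 1.03, of Myh4 from -0.14 to 0.25 and of Chrna1 from -0.26 to 0.0894. With the replicate block Csrp3 was at 1.67 and Pdk4 at 0.13, and with sample quality weights Csrp3 was at 0.94, Pdk4 at 0.76 and Chrna1 at 0.0665. Without the 3 libraries that lie far out over all 9, and without the 2 of them at 15 and 21 months, Csrp3 was at 1.27 and 1.27, Pdk4 at 0.71 and 0.71, Chrna1 at 0.0592 and 0.0592 and Myh4 at -0.0105 and -0.0103. The cause of these shifts was not tested. Genes under 1 CPM could not be shown flat at this depth (0 of 742).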

Other observations

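Several gene groups not described above had 0 genes called by edgeR between 15 and 21 months, and their flat members are counted here. Over all tested genes 61.1% were flat. The antioxidant and NRF2 list had 19 of 26 tested genes flat. The list of oxidative coactivators and nuclear receptors had 13 of 20, among them Ppargc1a, the coactivator of mitochondrial biogenesis (log2 fold change -0.05, SE 0.15). MHC class I and immunoproteasome genes were flat in 8 of 14, with B2m, the light chain of the class I molecule, at -0.01 (SE 0.20). Of the atrophy and FoxO genes 11 of 22 were flat, among them Foxo1 (-0.04, SE 0.19), and the median was -0.02. Thin filament, Z-disc and M-band genes were flat in 10 of 23, with Neb, nebulin, at 0.10 (SE 0.13), and Mybph was the 1 member under 0.05 unadjusted. Lipid synthesis genes were flat in 10 of 21. In the homeobox list, which holds factors of positional identity, 7 of 16 were flat, among them Hoxc10 (0.03, SE 0.12). Interferon-stimulated genes were flat in 6 of 29 and myokines in 3 of 15, and 0 genes of either list were under 0.05 unadjusted with edgeR. The median level was 9.67 CPM in the homeobox list, 8.15 CPM in the interferon-stimulated list and 10.6 CPM in the myokine list. Flat genes made up 26.3% of all genes from 1 to 10 CPM and 83.1% of those from 10 to 100 CPM.

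The collagen and matrix list had 23 of 34 genes above 0, with a median of 0.09. In it 10 were flat (29.4%, against 61.1% of all genes), among them Dcn, which encodes the proteoglycan decorin (-0.04, SE 0.18). Without the 2 libraries that stood apart 27 of 34 were above 0 and the median was 0.15, while without replicate 3 at 15 months 15 of 34 were above 0 and it was -0.04. It was 0.16 without replicate 1 and 0.04 without replicate 2 at 15 months, and 0.03 without replicate 3 at 21 months. Mmp3, a matrix protease, was its 1 member under 0.05 unadjusted, at 1.18, 0.431 and 0.505 CPM at 15 months and at 1.68, 1.13 and 1.42 CPM at 21 months, with overlap. Among ATF4 targets 6 of 21 were flat, Atf4 itself among them (-0.01, SE 0.16). Asns, which makes asparagine, was at 2.05, 2.10 and 2.40 CPM and then at 3.85, 2.68 and 2.90 CPM, without overlap. Vegfc, a lymphatic growth factor, was at 3.53, 3.27 and 3.16 CPM and then at 4.15, 4.53 and 4.88 CPM. It was the 1 gene of 20 in the angiogenesis list whose older mice all lay above the younger. Over all tested genes the older mice all lay above in 2.84% and all below in 3.3%. In the angiogenesis list 14 of 20 genes were below 0. The older mice all lay below the younger in Npy1r, the 1 gene lower at an unadjusted p under 0.05, and in Apln, which encodes the peptide apelin (-0.49, SE 0.38). Ciita, the master activator of MHC class II, was at 1.30, 1.42 and 1.2003 CPM and then at 2.52, 1.97 and 1.54 CPM, without overlap. Jchain, made by plasma cells, was at 0.186, 0.863 and 0.569 CPM and then at 2.46, 0.656 and 1.11 CPM, with overlap. Tead1, a partner of the YAP coactivator, was at 293, 283 and 321 CPM and then at 246, 236 and 275 CPM, without overlap and still within the bounds of flatness (-0.25, SE 0.11). These genes were named after their values were seen.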
